A study of Homo sapiens with 30 samples.

Results

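Histones are the proteins around which DNA is wound, and the human genome carries them in many gene copies. The genes described here are the protein-coding rows whose symbols begin with HIST1H to HIST4H, H2AF or H3F3, and 83 of the 58735 genes in the deposited table met that rule. Members were chosen by symbol and gene type, and the family was selected on fold changes and calls seen in earlier results of these data, so its values are given as a description. They form 2 sets, 71 replication-dependent genes of the HIST clusters and 12 genes for variant histones. The study asked how inhibiting PIM kinases compares with degrading them in PC3 cells, a line derived from a prostate cancer metastasis. Cells were exposed for 48 h to SGI-1776-VHL-02, a degrader, at 3750 nM or 1500 nM, to the PIM kinase inhibitor SGI-1776 at 3750 nM or 1500 nM, or to DMSO, the solvent control. All 5 groups are of this 1 cell line, and each group holds 6 libraries, labelled as Rep 1 and Rep 2 with 3 libraries in each. Messenger RNA was drawn from total RNA on poly-T beads before sequencing, so a transcript without a poly-A tail reaches these libraries only in part.

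Replication-dependent histone genes are transcribed mainly in S phase, when new DNA has to be packaged. Their mRNAs normally end just after a short stem-loop instead of a poly-A tail; the stem-loop binding protein SLBP and a complex built on the U7 small nuclear RNA make that end. Some of these genes also give longer polyadenylated transcripts that run past the stem-loop, and such transcripts have been described in differentiated and non-dividing cells. Variant genes such as H2AFZ or H3F3B contain introns, carry poly-A tails and are expressed outside S phase as well.

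The stem-loops of 8 members are printed because they mark the point at which a replication-dependent transcript is normally cut. They were read from GENCODE 29 transcripts in the genes' own orientation with 5 bases on each side, and capitals mark the 16 bases of the stem and loop.
HIST1H2AC: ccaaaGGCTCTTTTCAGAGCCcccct
HIST2H2BE: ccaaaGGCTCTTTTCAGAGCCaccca
HIST1H4H: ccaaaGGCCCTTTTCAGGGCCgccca
HIST1H3E: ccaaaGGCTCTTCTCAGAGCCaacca
HIST1H4I: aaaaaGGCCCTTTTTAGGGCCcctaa
HIST1H2BC: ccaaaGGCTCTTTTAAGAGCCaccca
HIST1H2BD: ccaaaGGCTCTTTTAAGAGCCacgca
H2AFX: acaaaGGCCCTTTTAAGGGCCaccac
On GRCh38 the stem-loop of HIST1H2AC lies at chr6:26124664-26124689 on the plus strand, that of HIST2H2BE at chr1:149886183-149886208 on the minus strand, and that of HIST1H4H at chr6:26285126-26285151 on the minus strand. Annotated transcripts run on past it, by 1114 bases in HIST1H2AC, 1729 bases in HIST2H2BE, 630 bases in HIST1H4H and 1862 bases in HIST1H3E. The motif, searched in the sense direction as the histone stem-loop, was present at any position in 95 of 83129 coding transcripts (0.114%). Among the members only hits in the annotated 3' UTR were counted, and it was present in 32 HIST genes and in H2AFX. It could not be found in the 35 HIST genes whose coding transcripts end at the stop codon, so its absence there is not a result. The core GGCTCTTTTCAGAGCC of HIST1H2AC and HIST2H2BE was the most frequent and occurred in 17 HIST genes, while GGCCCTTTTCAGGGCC of HIST1H4H and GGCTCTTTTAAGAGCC of HIST1H2BC and HIST1H2BD occurred in 5 each. H2AFX was the exception among the variants: its annotated transcript holds a stem-loop at chr11:119094893-119094918, 49 bases after the stop codon, and continues for 1044 bases. In those 35 genes, reads from 3' ends beyond the annotated exons would not have been counted. HIST1H3J among them has a gene length of 775 bases, against 411 in its coding transcript.

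The promoters of HIST2H2BE and HIST1H2AC are printed because both genes changed strongly and each stands head to head with another member (RefSeq, GRCh38.p14, 250 bases before to 50 bases after the start). Capitals mark CCAAT, the TATA box TATAAA and the octamer ATTTGCAT on either strand, and none of the marked runs overlap.
HIST2H2BE promoter, chr1:149886633-149886932, minus strand: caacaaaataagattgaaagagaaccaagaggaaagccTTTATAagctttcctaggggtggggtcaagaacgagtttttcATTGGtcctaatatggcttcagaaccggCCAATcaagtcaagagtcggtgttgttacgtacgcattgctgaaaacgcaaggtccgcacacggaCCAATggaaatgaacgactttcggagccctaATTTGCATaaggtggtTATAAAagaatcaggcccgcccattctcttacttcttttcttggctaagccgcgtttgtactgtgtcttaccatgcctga
HIST1H2AC promoter, chr6:26123922-26124221, plus strand: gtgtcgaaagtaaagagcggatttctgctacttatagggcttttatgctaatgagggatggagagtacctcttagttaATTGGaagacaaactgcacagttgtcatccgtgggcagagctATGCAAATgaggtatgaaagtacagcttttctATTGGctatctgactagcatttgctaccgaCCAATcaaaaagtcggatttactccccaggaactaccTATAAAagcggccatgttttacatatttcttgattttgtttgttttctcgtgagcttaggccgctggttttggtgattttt
RefSeq promoters were matched for 72 of the 83 members, 61 of them HIST genes. CCAAT was present in 51 of the 61 HIST promoters (83.6%), against 34.6% of 35116 promoters of the same length, and TATAAA in 40 (65.6%), against 11.5%. The octamer, which POU2F1 binds in histone H2B promoters, was present in 26 (42.6%), against 1.77% of all promoters. It was present in 14 of 18 H2B and 11 of 14 H2A promoters, in 1 of 10 H3 promoters, and in none of the 6 H1 or 13 H4 promoters. Promoters of head-to-head partners can overlap, as that of HIST2H2BE does with that of HIST2H2AC at chr1:149886668-149886967. The same octamer can thus be counted in both families. The H3 promoter with the octamer is the same interval, chr6:26199244-26199543, as an H2A promoter. Motif counts therefore include some stretches of DNA more than once. CCAAT was present in every H1, H2A, H2B and H3 promoter matched and in 3 of 13 H4 promoters.

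Library totals ran from 22520292 to 48968707 counts, and levels are given as CPM, read counts divided by library size after adjustment by the trimmed mean of M-values (TMM). A gene was called when its adjusted p was under 0.05 in a two-sided quasi-likelihood test in edgeR; the Benjamini-Hochberg adjustment covered the 17499 genes tested, separately in each of 8 comparisons between groups. Whether libraries stem from different cultures is not stated in the labels, so p-values measure only the spread between these libraries, which may be technical. Mitochondrial genes took 1.94% to 3.96% of counts in Rep 1 libraries and 0.296% to 1.67% in Rep 2 libraries, and 4 libraries were under 0.5%. The epithelial markers KRT8, KRT18, EPCAM and CDH1 summed to between 905 and 1139 CPM per library. The 4 leukocyte markers summed to between 0.318 and 1.07 CPM.

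A small number of HIST genes supplied most of the HIST signal. Of the 71 genes, 42 had enough counts to be tested, 23 had at least 1 count but were not tested, and 6 had no count in any library. The filter lets a gene through when only some groups express it, so counts of tested genes below describe those 42 and not all 71. A mean of at least 10 CPM was reached by 10 genes, 17 lay between 1 and 10 CPM, and 15 of the tested genes stayed under 1 CPM. H2B genes held 41.2% of the HIST CPM, H2A genes 26.8%, H4 genes 14.7%, the linker histone H1 genes 13.1% and H3 genes 4.17%. Per kilobase of gene length the highest mean level over the 30 libraries was that of HIST1H2BK (201 CPM per kb), followed by the linker histone HIST1H1C (101), HIST1H2AC (58.9), HIST1H2BD (26.0), HIST3H2A (22.4), HIST1H2BC (21.2), HIST1H4H (20.6), HIST2H2BE (19.4), HIST1H4I (16.9) and HIST1H2BG (11.7). Gene length is that given with the counts and can exceed the coding transcripts, as in HIST1H4H, with 2163 bases against 1034 in its longest coding transcript. Among the genes that were not tested, HIST1H4C had the highest total, 191 counts over all libraries, and HIST1H2AL had 180. HIST1H2AL overlaps another HIST gene on the same strand, so its total is uncertain.

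Genes with a long annotated 3' UTR, of at least 200 bases, numbered 25 and held 68.2% of the HIST CPM, with a median gene level of 5.38 CPM. The 35 genes with coding transcripts annotated only to the stop codon had a median of 0.106 CPM and held 29.96%, most of it from HIST1H2BK and HIST1H1C. The remaining 11 genes with a short 3' UTR held 1.82%.

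The summed HIST level lay below DMSO in SGI-1776-VHL-02 libraries and above it in SGI-1776 libraries. It averaged 393 ± 19.4 CPM with SGI-1776-VHL-02 at 3750 nM, 363 ± 15.4 CPM with SGI-1776-VHL-02 at 1500 nM, 755 ± 31.9 CPM with SGI-1776 at 3750 nM, 568 ± 15.7 CPM with SGI-1776 at 1500 nM and 443 ± 14.1 CPM with DMSO (SD, n = 6 each). The ranges of the 6 libraries did not overlap DMSO for any of the 4 treatments. Against DMSO the sum was 0.887 times as high with SGI-1776-VHL-02 at 3750 nM and 0.820 times at 1500 nM, and 1.70 times as high with SGI-1776 at 3750 nM and 1.28 times at 1500 nM. Against SGI-1776 at the same dose the sum with SGI-1776-VHL-02 was 0.520 times as high at 3750 nM and 0.639 times at 1500 nM. These are sums over members, given without a test. In bulk RNA, a different share of cells expressing these genes and a different level per cell cannot be told apart, and neither can more transcript and a larger polyadenylated share of it.

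**Figure D1:**
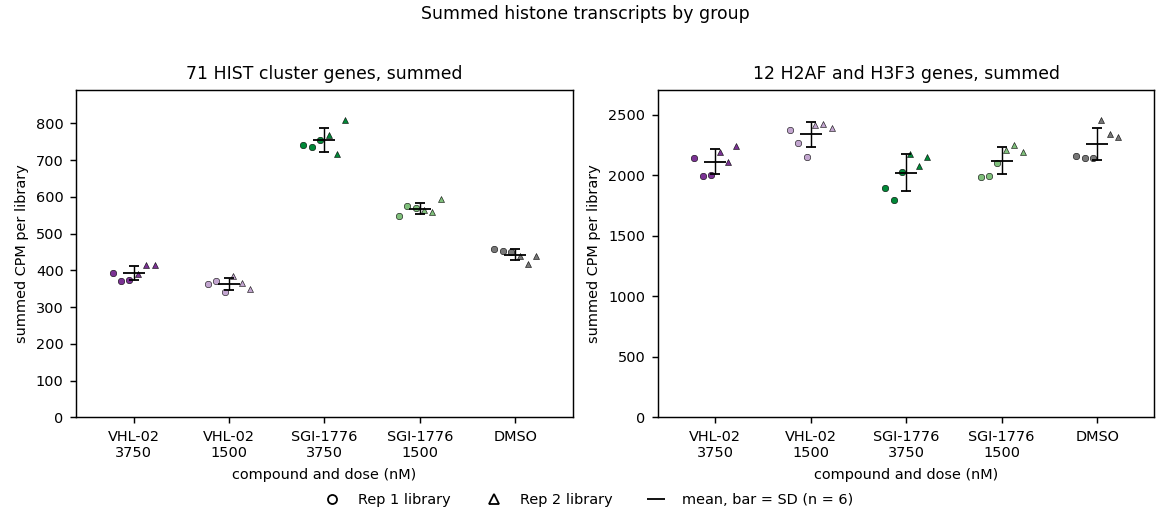
Summed CPM of the HIST genes and of the variant genes in each library, by group (VHL-02 stands for SGI-1776-VHL-02; circles Rep 1, triangles Rep 2; bars mean and SD, n = 6). HIST sums lie between 717 and 809.5 CPM with SGI-1776 at 3750 nM, against 418 to 457 CPM with DMSO, whereas the variant sums overlap between all groups compared.

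With SGI-1776 at 3750 nM, 26 of the 42 tested HIST genes rose and 2 fell against DMSO, while 17.2% of all 17499 genes rose and 18.4% fell. At 1500 nM 15 rose and none fell, against backgrounds of 5.28% and 7.65%, and 17 of the 42 had an unadjusted p under 0.05 (DESeq2 called 14, all of them higher). The median log2 fold change of the 42 was 0.63 at 3750 nM and 0.27 at 1500 nM, beside 0.01 and 0.00 over all genes tested. Library ranges lay wholly above DMSO for 18 HIST genes at 3750 nM and for 9 at 1500 nM, where the backgrounds were 8.23% and 2.66%, and wholly below it for 1 and for none (backgrounds 9.74% and 4.21%). When the 3 libraries of each Rep were summed, leaving 2 samples per group, 16 of the 28 calls at 3750 nM and none at 1500 nM were made again. Of the prostate luminal genes, KLK3 was at 0 in every library and TMPRSS2 rose with SGI-1776, by 0.71 ± 0.10 at 3750 nM and 0.37 ± 0.10 at 1500 nM on the log2 scale, and its part in these results was not tested.

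Of the genes for H2B, an outer histone of the nucleosome core, 12 of 14 tested rose at 3750 nM and 7 of 14 at 1500 nM. Over all genes 17.2% rose and 18.4% fell at 3750 nM, and 5.28% rose at 1500 nM. The same shares stand beside the counts for the other histone families below. HIST2H2BE had lowest, median and highest levels of 67.4, 71.5 and 78.0 CPM with SGI-1776 at 3750 nM and of 47.0, 51.0 and 53.1 CPM at 1500 nM, against 31.5, 34.4 and 38.5 CPM with DMSO. The 3 groups do not overlap, and the log2 fold change was 1.06 ± 0.05 at 3750 nM (SE, adjusted p = 4.16e-15) and 0.55 ± 0.05 at 1500 nM (adjusted p = 8.78e-08). HIST1H2BD reached 30.2, 32.0 and 34.9 CPM at 3750 nM and 25.4, 26.3 and 28.4 CPM at 1500 nM, against 17.7, 19.0 and 19.8 CPM with DMSO, again without overlap (log2 0.78 ± 0.05 and 0.50 ± 0.05). HIST1H2BK, the HIST gene with the highest level per kilobase, had smaller fold changes: 89.2, 96.5 and 111 CPM at 3750 nM and 76.3, 81.9 and 93.7 CPM at 1500 nM, against 69.3, 72.5 and 76.1 CPM with DMSO. Its lowest library at 1500 nM lay just above the highest DMSO library, and the log2 fold changes were 0.45 ± 0.05 (adjusted p = 8.17e-08) and 0.19 ± 0.05 (adjusted p = 0.0161). HIST1H2BC rose at 3750 nM (0.46 ± 0.08, adjusted p = 1.99e-05) but at 1500 nM differed by 0.10 ± 0.08 (adjusted p = 0.466).

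Among the H2A genes, partners of H2B in the nucleosome, 6 of 9 rose and 1 fell at 3750 nM, and 2 of 9 rose at 1500 nM. HIST1H2AC, at chr6:26124145-26139116 on the plus strand and the most abundant HIST gene in CPM, had 149.8, 158 and 182 CPM with SGI-1776 at 3750 nM and 106, 117 and 118 CPM at 1500 nM, against 71.1, 78.5 and 82.1 CPM with DMSO. Every library of both doses exceeded every DMSO library (log2 1.06 ± 0.06 at the higher dose, adjusted p = 2.88e-14, and 0.54 ± 0.06 at the lower, adjusted p = 4.55e-07). HIST3H2A, on chromosome 1 outside the main cluster, rose by 0.83 ± 0.07 and 0.37 ± 0.07. HIST2H2AC was the H2A gene that fell: it had 1.23, 1.74 and 2.15 CPM with SGI-1776 at 3750 nM, against 2.21, 2.52 and 2.71 CPM with DMSO, without overlap (log2 -0.54 ± 0.13, adjusted p = 0.00121).

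The linker histone HIST1H1C was the H1 gene that rose, of 3 tested, and the other two were not called. It had 81.5, 90.7 and 103 CPM with SGI-1776 at 3750 nM and 69.0, 70.9 and 75.2 CPM at 1500 nM, against 58.5, 60.0 and 65.5 CPM with DMSO, without overlap (log2 0.61 ± 0.06, adjusted p = 1.31e-09, and 0.23 ± 0.06, adjusted p = 0.00736). Of the genes for H4, a central core histone, 5 of 9 rose at 3750 nM and 3 at 1500 nM. HIST1H4H had 70.7, 74.6 and 77.4 CPM at 3750 nM and 45.4, 51.4 and 54.7 CPM at 1500 nM, against 32.5, 35.7 and 38.0 CPM with DMSO, and again no library overlapped (log2 1.08 ± 0.05, adjusted p = 2.27e-15, and 0.54 ± 0.05, adjusted p = 8.78e-08). HIST2H4A, which shares nearly all of its sequence with HIST2H4B, had the largest increase of a called HIST gene at 3750 nM (1.40 ± 0.31, adjusted p = 0.000619), and reads of that pair may have been split between the copies. HIST1H4E rose at 3750 nM (1.18 ± 0.26, adjusted p = 0.00044). At 1500 nM its difference of 0.65 ± 0.26 missed the threshold (adjusted p = 0.0987), but a fit that blocks on Rep called it (adjusted p = 0.000659). For H3, the other central core histone, 2 of 7 rose at each dose and 1 fell at 3750 nM. HIST1H3E had 9.59, 12.6 and 14.6 CPM with SGI-1776 at 3750 nM and 7.49, 8.81 and 9.38 CPM at 1500 nM, against 4.87, 5.66 and 6.79 CPM (log2 1.06 ± 0.10 and 0.58 ± 0.10). The other that rose was HIST1H3H (0.79 ± 0.07 and 0.38 ± 0.07), and HIST1H3C fell at 3750 nM, with 0.392, 0.547 and 1.20 CPM against 0.919, 1.23 and 1.33 CPM with DMSO (-0.81 ± 0.25, adjusted p = 0.00991).

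**Figure D2:**
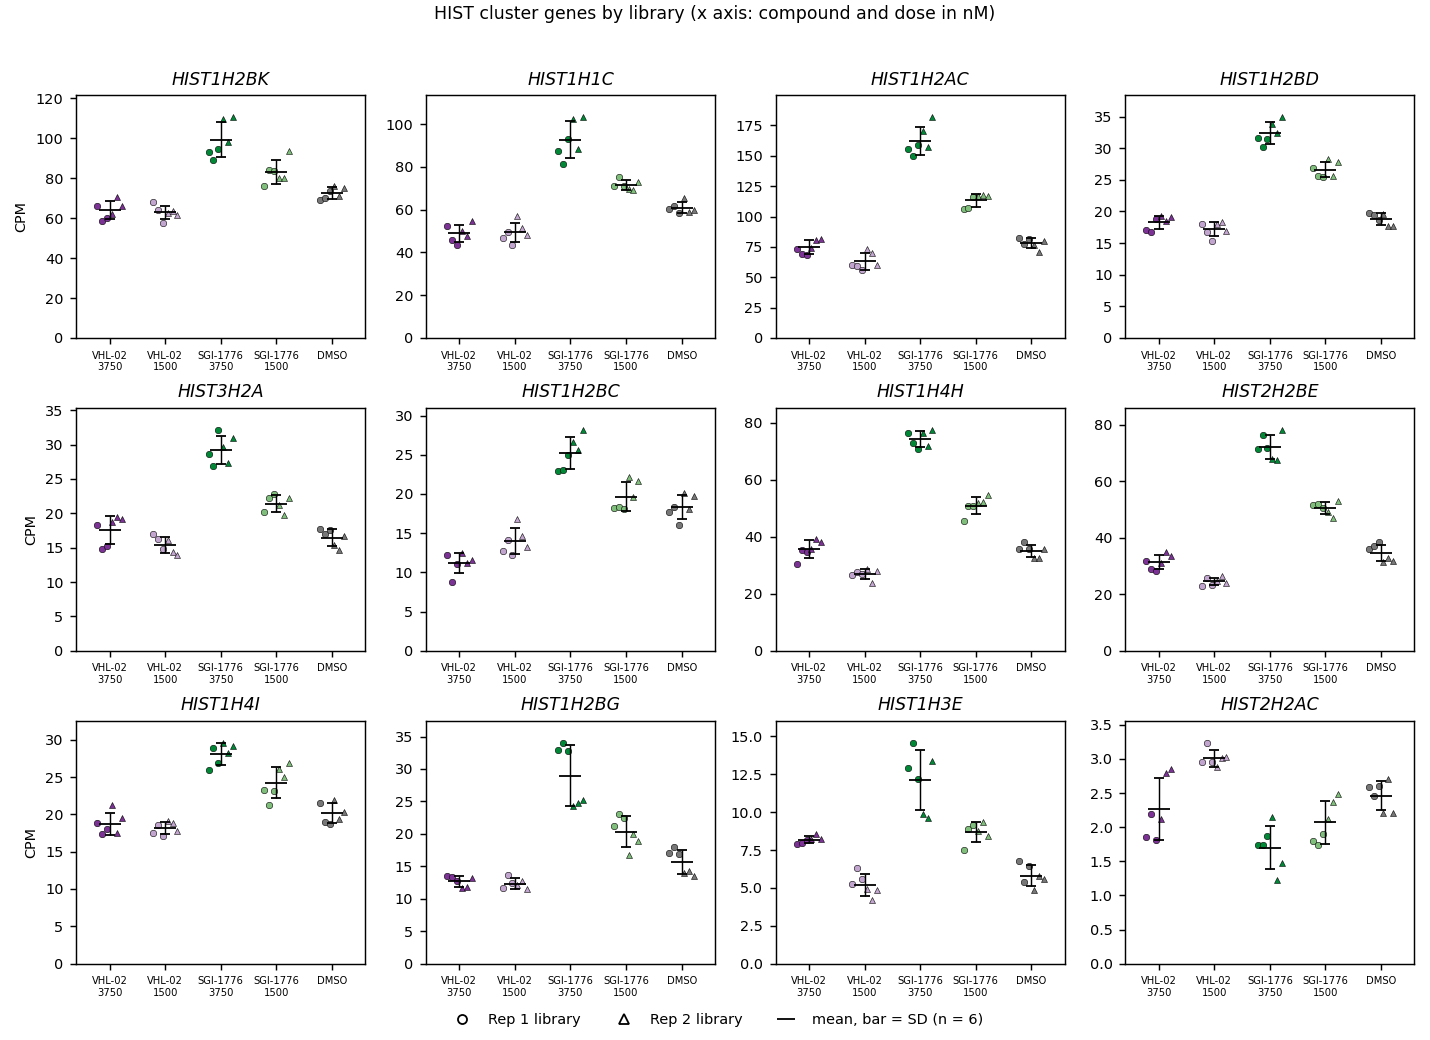
CPM of HIST members in each library, by group (VHL-02 stands for SGI-1776-VHL-02; circles Rep 1, triangles Rep 2; bars mean and SD, n = 6; each axis starts at 0). HIST1H2AC, HIST2H2BE and HIST1H4H with SGI-1776 stand above every DMSO library at both doses.

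With SGI-1776-VHL-02 most called HIST genes were lower than with DMSO. Against DMSO 14 of the 42 fell and 1 rose at 3750 nM, beside 10.3% and 11.5% of all genes, and 10 fell and none rose at 1500 nM, beside 0.851% and 1.07%. The median log2 fold change was -0.35 at 3750 nM and -0.30 at 1500 nM. Library ranges lay wholly below DMSO for 12 HIST genes at 3750 nM and 5 at 1500 nM, against 5.77% and 0.651% of all genes, and wholly above it for 1 gene at each dose (backgrounds 6.45% and 1.07%). When libraries were summed per Rep, 3 of the 15 HIST calls at 3750 nM and none at 1500 nM were made again, and the fit without Rep 1 left 3 at 1500 nM. These comparisons use the same DMSO libraries as those with SGI-1776.

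At both doses 7 HIST genes fell against DMSO, namely HIST1H1C, HIST1H2AG, HIST1H2AI, HIST1H2BC, HIST1H2BG, HIST1H2BK and HIST1H3H. The share of all genes that fell at both doses was not counted, and it cannot exceed the 0.851% that fell at 1500 nM. Both doses were compared with the same DMSO libraries. HIST1H1C had 43.6, 48.8 and 54.5 CPM with SGI-1776-VHL-02 at 3750 nM and 43.7, 48.9 and 56.9 CPM at 1500 nM, all below the 58.5 CPM of the lowest DMSO library (log2 -0.31 ± 0.06, adjusted p = 0.000179, and -0.30 ± 0.06, adjusted p = 0.00348). HIST1H3H likewise did not overlap DMSO, with 5.35, 5.77 and 6.17 CPM at 3750 nM and 5.30, 6.0 and 6.87 CPM at 1500 nM, against 7.05, 8.22 and 8.99 CPM (log2 -0.50 ± 0.07 and -0.46 ± 0.07). HIST1H2BC fell further, to 8.72, 11.3 and 12.5 CPM at 3750 nM, with 12.3, 13.7 and 16.8 CPM at 1500 nM, against 15.98, 18.2 and 20.1 CPM with DMSO (log2 -0.71 ± 0.08, adjusted p = 6.18e-08, and -0.39 ± 0.08, adjusted p = 0.00479). The lower dose overlapped DMSO in that gene and the higher dose did not. HIST1H2BK fell by less, by 0.18 on the log2 scale at 3750 nM (SE 0.05, adjusted p = 0.0149) and by 0.21 at 1500 nM (SE 0.05, adjusted p = 0.0393).

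The 3 genes HIST1H2AC, HIST1H4H and HIST2H2BE fell at 1500 nM and were not called at 3750 nM. HIST2H2BE had 28.4, 31.5 and 35.0 CPM with SGI-1776-VHL-02 at 3750 nM and 22.9, 24.3 and 26.5 CPM at 1500 nM, against 31.5, 34.4 and 38.5 CPM with DMSO. Only the 1500 nM libraries lay wholly below DMSO (log2 -0.50 ± 0.06, adjusted p = 1.33e-06), and the difference at 3750 nM was -0.13 ± 0.06 (adjusted p = 0.0835, or 0.037 without the 4 libraries of low mitochondrial share). HIST1H4H had 30.4, 35.7 and 39.2 CPM at 3750 nM and 23.9, 27.3 and 28.9 CPM at 1500 nM, against 32.5, 35.7 and 38.0 CPM (log2 0.02 ± 0.05, adjusted p = 0.825, and -0.38 ± 0.05, adjusted p = 5.79e-05). HIST1H2AC fell by 0.31 at 1500 nM (SE 0.06, adjusted p = 0.00306) and differed by -0.06 ± 0.06 at 3750 nM.

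HIST1H3E, an H3 gene, rose with SGI-1776-VHL-02 at 3750 nM and was the only HIST gene called higher in either comparison of that compound with DMSO. It had 7.91, 8.17 and 8.56 CPM at 3750 nM and 4.23, 5.09 and 6.29 CPM at 1500 nM, against 4.87, 5.66 and 6.79 CPM with DMSO (log2 0.49 ± 0.10, adjusted p = 0.000316, and -0.17 ± 0.10, adjusted p = 0.422). Another H3 gene, HIST1H3A, had 0.141, 0.185 and 0.540 CPM at 3750 nM, against 0.483, 0.760 and 0.876 CPM with DMSO, and fell by 1.36 on the log2 scale (SE 0.28, adjusted p = 0.000551). HIST2H2BF missed the threshold at both doses (log2 -0.41 ± 0.16, adjusted p = 0.0568 at 3750 nM, and -0.50 ± 0.16, adjusted p = 0.0896 at 1500 nM) and was called by the fit that blocks on Rep (adjusted p = 0.0061 and 0.00603). No H4 gene was called at 3750 nM among the 9 tested, and 1 of the 9 fell at 1500 nM, beside 0.851% of all genes.

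Set against each other at the same dose, the compounds differed in most of the tested HIST genes. SGI-1776-VHL-02 gave lower levels than SGI-1776 in 34 of 42 genes and a higher level in 1 at 3750 nM, where 13.5% of all genes were lower and 17.6% higher. At 1500 nM 27 were lower and 1 higher, against 10.7% and 14.4%. Of these, 26 genes were lower at both doses. The share of all genes lower at both was not counted, and it cannot exceed the 10.7% lower at 1500 nM. The median log2 difference of the 42 was -0.96 at 3750 nM and -0.60 at 1500 nM. The library ranges were wholly below those of SGI-1776 for 27 genes at 3750 nM and 16 at 1500 nM (backgrounds 6.8% and 4.18%), and wholly above for none and for 1 (backgrounds 9.79% and 6.86%). When the libraries of each Rep were summed, 26 of the 35 calls at 3750 nM and 7 of the 28 at 1500 nM were made again.

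The differences were large for the abundant members. At 3750 nM SGI-1776-VHL-02 was below SGI-1776 by 1.20 on the log2 scale in HIST2H2BE (SE 0.06, adjusted p = 1.61e-16), by 1.12 in HIST1H2AC (SE 0.06, adjusted p = 3.27e-15), by 1.06 in HIST1H4H (SE 0.05, adjusted p = 9.53e-16) and by 0.92 in HIST1H1C (SE 0.06, adjusted p = 2.09e-13). At 1500 nM the same differences were 1.04, 0.85, 0.92 and 0.53. The most negative log2 difference of a called HIST gene at 3750 nM was that of HIST2H2AA3, -1.90 ± 0.38 (adjusted p = 0.00023), with 0.0772, 0.179 and 0.314 CPM for SGI-1776-VHL-02 against 0.336, 0.653 and 1.13 CPM for SGI-1776. HIST2H2AA3 and HIST2H2AA4 are near-identical copies whose counts are uncertain, and HIST2H2AA4 gave -1.40 ± 0.32. HIST2H2AC was the gene that differed the other way at both doses, with 1.81, 2.16 and 2.86 CPM for SGI-1776-VHL-02 against 1.23, 1.74 and 2.15 CPM for SGI-1776 at 3750 nM (log2 0.42 ± 0.13, adjusted p = 0.0113), and 2.88, 2.98 and 3.23 CPM against 1.74, 2.01 and 2.49 CPM at 1500 nM (0.53 ± 0.12, adjusted p = 0.00128). Its ranges overlapped at 3750 nM and not at 1500 nM.

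Opposite calls against DMSO, lower with SGI-1776-VHL-02 and higher with SGI-1776, were made for 11 HIST genes at 3750 nM and for 7 at 1500 nM. Such opposite calls were not counted over all genes. Their share cannot exceed the 10.3% that fell with SGI-1776-VHL-02 at 3750 nM or the 0.851% at 1500 nM. The comparisons share their DMSO libraries. HIST1H2AE, HIST1H2BC and HIST1H2BO were among the genes on the list for 3750 nM alone. HIST1H2AC, HIST1H4H and HIST2H2BE were on the list for 1500 nM alone, while HIST1H1C, HIST1H2BG, HIST1H2BK and HIST1H3H were on both lists. In contrast, 11 tested HIST genes were called in no comparison with DMSO, and the matching share of all genes was not counted.

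**Figure D3:**
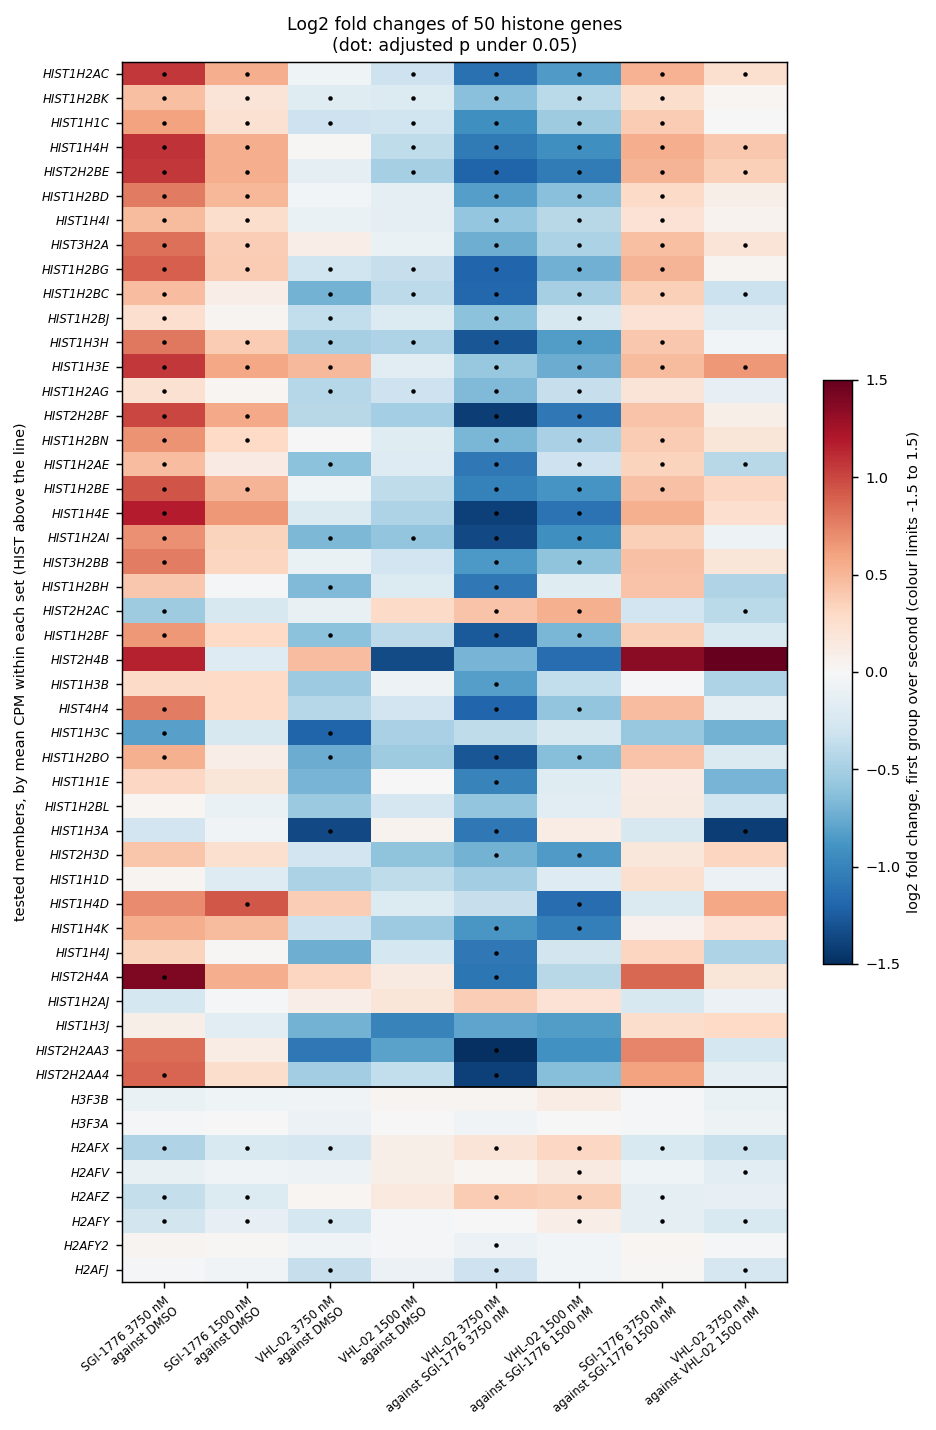
Log2 fold changes of tested members in the 8 comparisons of groups (colour limits -1.5 and 1.5; a dot marks an adjusted p under 0.05; VHL-02 stands for SGI-1776-VHL-02). Most HIST rows are positive for SGI-1776 against DMSO and negative for SGI-1776-VHL-02 against SGI-1776, and variant values lie nearer to 0.

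The doses of each compound were also compared, and the difference between the dose effects of the compounds was not tested. SGI-1776 at 3750 nM exceeded 1500 nM in 15 HIST genes and was lower in none (backgrounds 4.46% and 4.69%), with a median log2 difference of 0.36. The ranges lay wholly above those at 1500 nM for 11 HIST genes and wholly below for none (backgrounds 2.54% and 2.27%). None of these calls was made again when libraries were summed per Rep. SGI-1776-VHL-02 at 3750 nM was higher than 1500 nM in 5 HIST genes and lower in 4 (backgrounds 9.23% and 9.74%), with a median of -0.02, and ranges lay wholly above for 3 and wholly below for 2 (backgrounds 4.67% and 5.26%). Those higher at 3750 nM included HIST1H3E (0.66 ± 0.10, adjusted p = 8.35e-06), HIST1H4H (0.40 ± 0.05) and HIST2H2BE (0.36 ± 0.06), and those lower included HIST1H3A (-1.42 ± 0.28, adjusted p = 0.000367), HIST1H2AE (-0.42 ± 0.10) and HIST1H2BC (-0.32 ± 0.08).

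Many histone genes stand in head-to-head pairs that share the DNA between their starts. Starts were taken as the outer ends of the GENCODE genes, and they can differ from the RefSeq starts used for the promoters. By that rule there were 12 such pairs among the members, with 219 to 357 bases between the starts, and both genes were tested in 7. HIST1H2BO enters with HIST1H3J, at 357 bases, and also with an H2A gene that overlaps HIST1H3J on the same strand. The HIST1H3J pair is therefore uncertain. HIST2H2BE and HIST2H2AC, 323 bases apart, moved in opposite directions with SGI-1776 at 3750 nM, by 1.06 ± 0.05 and -0.54 ± 0.13, and the promoter of HIST2H2BE printed above covers most of the space between them. HIST1H2BC and HIST1H2AC, 219 bases apart, both rose with SGI-1776 at 3750 nM, by 0.46 ± 0.08 and 1.06 ± 0.06. With SGI-1776-VHL-02 at 3750 nM HIST1H2BC fell (-0.71 ± 0.08), while HIST1H2AC differed by -0.06 ± 0.06. For HIST1H2BG and HIST1H2AE, 283 bases apart, the values were 0.89 and 0.46 with SGI-1776 and -0.30 and -0.62 with SGI-1776-VHL-02 at 3750 nM, all called. HIST1H2BJ and HIST1H2AG, 292 bases apart, were close to each other, at 0.25 and 0.23 with SGI-1776 and -0.37 and -0.43 with SGI-1776-VHL-02. HIST2H2AC is annotated only to its stop codon and shares 30.5% of its 50-base windows with other histone genes or pseudogenes. Part of its reads may thus have been assigned elsewhere.

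**Figure D4:**
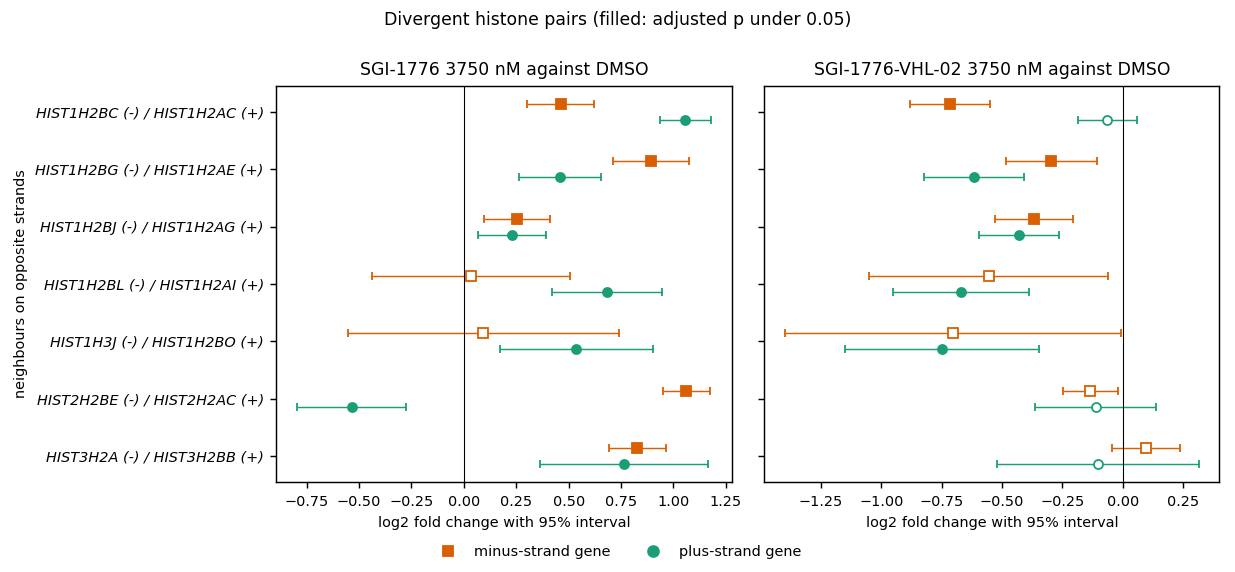
Log2 fold changes against DMSO of the 7 head-to-head pairs with both genes tested, for SGI-1776 at 3750 nM and SGI-1776-VHL-02 at 3750 nM. Squares are minus-strand genes and circles plus-strand genes, bars are 95% intervals, and filled symbols have an adjusted p under 0.05. With SGI-1776 at 3750 nM HIST2H2BE lies at 1.06 and its neighbour HIST2H2AC at -0.54.

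The calls were also counted by the annotated 3' end, which was not used to choose the genes; differences between these classes were not tested. With SGI-1776 at 3750 nM 20 of 22 tested genes with a long 3' UTR rose and none fell, and 3 of 7 with a short one rose. Of 13 with coding transcripts annotated only to the stop codon 3 rose and 2 fell. Over all genes 17.2% rose and 18.4% fell in that comparison, and the counts of the stop-codon class are near these shares. With SGI-1776-VHL-02 at 3750 nM 7 of the 22 fell and 1 rose, 2 of the 7 fell, and 5 of the 13 fell. There 10.3% of all genes fell and 11.5% rose. The genes with long 3' ends were also the more abundant ones, and the part of abundance in these counts was not tested. For 27 tested HIST genes, at most 10% of the 50-base windows were found in another histone gene or pseudogene. Of these, 20 rose and 1 fell with SGI-1776 at 3750 nM, and 11 fell and 1 rose with SGI-1776-VHL-02 at 3750 nM. The same shares of all genes stand beside these counts. For 28 genes of small nuclear and other RNAs without a poly-A tail the summed level was 7.60 to 23.9 CPM per library. Of these, 4 were tested and 1 fell with SGI-1776 at 3750 nM, beside 18.4% of all genes. The part of these RNAs in the results was not tested.

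The variant histones fell, where called against DMSO, with both compounds. Of the 12 genes 8 were tested, and H2AFB1, H2AFB2, H2AFB3 and H3F3C were too low. Their sum averaged 2112 ± 100 CPM with SGI-1776-VHL-02 at 3750 nM, 2335 ± 105 CPM with SGI-1776-VHL-02 at 1500 nM, 2022 ± 149 CPM with SGI-1776 at 3750 nM, 2121 ± 113 CPM with SGI-1776 at 1500 nM and 2258 ± 131 CPM with DMSO (SD, n = 6 each), and all pairs of groups compared overlapped. Per kilobase of gene length, H2AFX was highest (168 CPM per kb), then H3F3B (148), H3F3A (87.3), H2AFZ (85.2), H2AFV (49.7), H2AFY2 (47.9), H2AFY (9.18) and H2AFJ (7.88). That length is 6134 bases for H3F3B and 17730 for H2AFY, whose longest coding transcripts have 2705 and 2789 bases. For H2AFX both lengths are 1614 bases, so the order holds for this measure only.

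With SGI-1776 against DMSO the same 3 of the 8 variants fell at both doses and none rose, while 18.4% of all genes fell at 3750 nM and 7.65% at 1500 nM. H2AFX, whose protein is phosphorylated at DNA breaks, had 190.4, 223 and 251 CPM with SGI-1776 at 3750 nM and 248, 258 and 268 CPM at 1500 nM, against 288, 304 and 311 CPM with DMSO, without overlap (log2 -0.45 ± 0.06, adjusted p = 4.06e-07, and -0.22 ± 0.06, adjusted p = 0.0101). H2AFZ, which encodes H2A.Z, had 149, 162 and 173 CPM at 3750 nM and 165, 176 and 197 CPM at 1500 nM, against 196, 205 and 216 CPM, so that the lower dose overlapped DMSO (log2 -0.35 ± 0.05, adjusted p = 4.17e-07, and -0.21 ± 0.05, adjusted p = 0.00238). H2AFY, which encodes macroH2A, had 141, 149 and 152 CPM at 3750 nM and 156, 165 and 168 CPM at 1500 nM, against 172, 178 and 186 CPM, without overlap (log2 -0.27 ± 0.03, adjusted p = 5.05e-09, and -0.13 ± 0.03, adjusted p = 0.00185). Without Rep 2 libraries 1 of the 3 calls at 1500 nM was made, and the same 3 at 3750 nM and none at 1500 nM were called again when the libraries of each Rep were summed. In the fit that blocks on Rep, H2AFV (adjusted p = 0.0101) and H3F3B (adjusted p = 0.0103) were also called lower at 3750 nM.

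With SGI-1776-VHL-02 at 3750 nM 3 of the 8 variants fell against DMSO and none rose, while 10.3% of all genes fell and 11.5% rose. H2AFJ, another H2A variant, had 19.7, 22.4 and 24.5 CPM, against 26.4, 28.0 and 30.9 CPM with DMSO (log2 -0.34 ± 0.05, adjusted p = 9.26e-07). Neither SGI-1776 dose was called for it (-0.03 ± 0.04 and -0.05 ± 0.04), and SGI-1776-VHL-02 was lower than SGI-1776 at 3750 nM (-0.31 ± 0.05, adjusted p = 2.9e-06). H2AFY had 145, 149 and 152 CPM with SGI-1776-VHL-02 at 3750 nM (-0.26 ± 0.03 against DMSO, adjusted p = 1.97e-08) and differed from SGI-1776 at that dose by 0.01 ± 0.03 (adjusted p = 0.835). H2AFX fell by 0.25 (SE 0.06, adjusted p = 0.00187). At 1500 nM edgeR and DESeq2 called none of the 8, and 1 had an unadjusted p under 0.05 in edgeR. That gene, H2AFZ, had 218, 230.3 and 236 CPM with SGI-1776-VHL-02 at 1500 nM against 196, 205 and 216 CPM with DMSO, with no overlap, and was called with Rep as a block (log2 0.15 ± 0.05, adjusted p = 0.0896, and 0.0122 with the block).

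Against SGI-1776 at the same dose, SGI-1776-VHL-02 gave higher H2AFZ, by 0.38 ± 0.05 at the higher dose (adjusted p = 1.24e-07) and by 0.36 ± 0.05 at the lower (adjusted p = 8.61e-07), and higher H2AFX (0.20 ± 0.06 and 0.31 ± 0.06). Among the 8 variants 2 were higher and 2 lower at 3750 nM, beside 17.6% and 13.5% of all genes (H2AFJ and H2AFY2, H2AFY2 at -0.09 ± 0.04), and 4 were higher and none lower at 1500 nM, beside 14.4% and 10.7%, a count that fell to 2 without Rep 1 libraries. The H3.3 genes were not called in any of the 8 comparisons of groups. H3F3B averaged 894 ± 57.2 CPM with SGI-1776-VHL-02 at 3750 nM, 957 ± 51.4 CPM with SGI-1776-VHL-02 at 1500 nM, 869 ± 77.9 CPM with SGI-1776 at 3750 nM, 887 ± 73.0 CPM with SGI-1776 at 1500 nM and 928 ± 89.9 CPM with DMSO (SD, n = 6 each). The groups overlapped throughout, and the block fit called H3F3B in 3 of the comparisons.

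**Figure D5:**
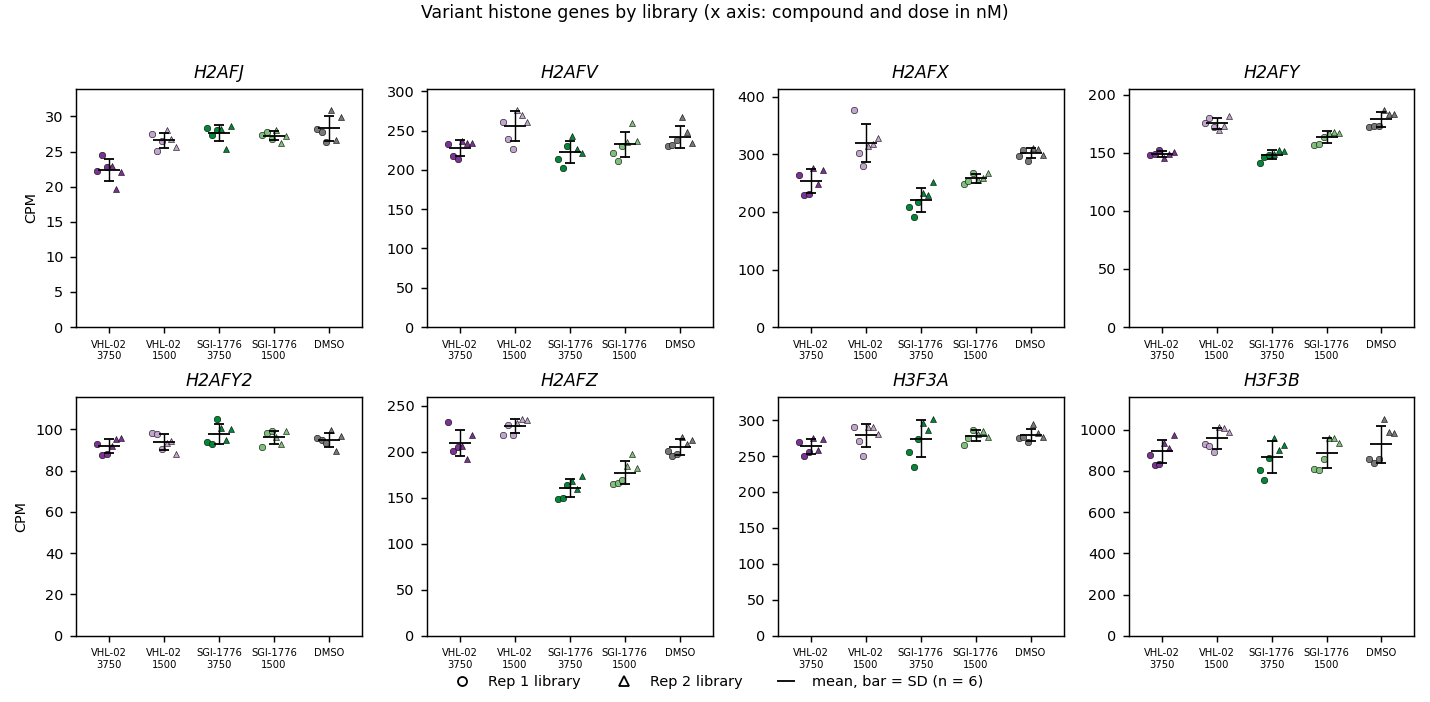
CPM of tested variant genes in each library, by group (VHL-02 stands for SGI-1776-VHL-02; circles Rep 1, triangles Rep 2; bars mean and SD, n = 6; each axis starts at 0). H2AFX, H2AFZ and H2AFY are lower with SGI-1776 at 3750 nM than with DMSO, and H2AFJ is lowest with SGI-1776-VHL-02 at 3750 nM.

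Genes that serve histone supply were read from lists chosen for this family. Of 30 tested factors that transcribe, process or degrade histone mRNA, 3 rose and 13 fell with SGI-1776 at 3750 nM, beside 17.2% and 18.4% of all genes, and 1 rose and 2 fell with SGI-1776-VHL-02 at 3750 nM, beside 11.5% and 10.3%. SLBP, which binds the stem-loop, averaged 58.1 ± 4.93 CPM with SGI-1776 at 3750 nM, against 66.0 ± 5.73 CPM with DMSO (SD, n = 6 each; log2 -0.18 ± 0.06, adjusted p = 0.01). NPAT, the activator of replication-dependent histone transcription, was not called in any comparison of groups. Of 41 tested histone chaperones and deposition factors, 2 rose and 25 fell with SGI-1776 at 3750 nM, and none rose and 7 fell with SGI-1776-VHL-02 at 3750 nM, against the same shares of all genes. CHAF1B, a subunit of the assembly factor CAF-1, fell by 0.42 on the log2 scale with SGI-1776 at 3750 nM. The centromeric H3 gene CENPA was also lower at 3750 nM, with SGI-1776-VHL-02 by a log2 fold change of -0.31 (adjusted p = 3.8e-05) and with SGI-1776 by -0.56 (adjusted p = 1.1e-09). H1F0, a polyadenylated linker histone, averaged 560 ± 31.7 CPM with SGI-1776 at 3750 nM, against 707 ± 44.8 CPM with DMSO (log2 -0.34, adjusted p = 3.7e-07).

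Genes expressed in S phase, with SLBP counted among them, fell under SGI-1776. Of 32 tested, 30 fell and none rose with SGI-1776 at 3750 nM, with a median log2 fold change of -0.35, and 20 fell at 1500 nM, where 18.4% and 7.65% of all genes fell. The thymidylate synthase gene TYMS (-0.54), the replication initiation gene CDC45 (-0.56) and the cyclin gene CCNA2 (-0.52) were among them. With SGI-1776-VHL-02 10 of the 32 fell at 3750 nM and none at 1500 nM (backgrounds 10.3% and 0.851%). Against SGI-1776 at the same dose 26 were higher at 3750 nM and 30 at 1500 nM (backgrounds 17.6% and 14.4%). The summed S-phase level averaged 2980 CPM with SGI-1776-VHL-02 at 3750 nM, 3424 CPM with SGI-1776-VHL-02 at 1500 nM, 2553 CPM with SGI-1776 at 3750 nM, 2879 CPM with SGI-1776 at 1500 nM and 3244 CPM with DMSO. The part of cell-cycle position in the HIST values was not tested.

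Rep 2 and Rep 1 libraries differed in many of all genes tested, members of this family among them. Over the 5 groups 6 HIST genes were higher and 14 lower in Rep 2 libraries than in Rep 1 libraries, beside 27.2% and 26.1% of all genes, and 6 of the 8 variants were higher. Each call in the 8 comparisons of groups, for HIST genes and variants, had the same direction when Rep 1 or Rep 2 libraries were fitted alone.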

How the data were processed

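Gene counts were made by the authors with featureCounts 1.5.0-p3, and the build was GRCh38/hg38, per the submitters' processing notes; the deposited values are raw counts for 30 libraries with gene names, types and coordinates. The aligner, the strand setting and the treatment of reads with several matches are not given in the sources used here. Per the labels' protocols, RNA was enriched on poly-T beads and primed with random hexamers. Counts of near-identical histone genes and of genes overlapping another on the opposite strand are therefore uncertain. So are counts of genes overlapping another on the same strand. Of the 42 tested HIST genes, 15 share over 10% of their 50-base windows with another histone gene or pseudogene. Of the same 42, 5 overlap a gene on the opposite strand and 2 overlap a gene on the same strand. Windows shared with transcripts of other genes were not searched.

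Here, library assignments followed the labels. edgeR 4.0.16 in R 4.3.3 (TMM scaling, filterByExpr on the groups, quasi-likelihood fit of the 5 groups together) gave log2 fold changes, standard errors and p-values, adjusted over all 17499 genes with a threshold of 0.05. CPM used the same scaling. The steps were also tested on simulated counts. Gene structures came from GENCODE 29, whose coordinates matched all 58735 identifiers, and promoters from RefSeq. The members and gene lists were chosen with earlier results of these data known. Named HIST genes are the 10 with the highest CPM per kilobase, up to 5 called genes at each end of every comparison, genes whose sequence is printed and their head-to-head partners; genes listed for a shared pattern are named after their values were seen.

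Libraries with the same Rep number deviated together: over 10 pairs of groups the correlation of their differences between Reps was 0.507 to 0.672, so the numbers pair the groups and a fit with Rep as a block was run beside the fit without it. No libraries were counted as duplicates: the chi-square per degree of freedom between libraries of a group was 1.95 to 23.2 within a Rep and 6.77 to 66.7 across Reps. Alternatives were other size factors, no filter, DESeq2 1.42.0, summing the libraries of each Rep, leaving out each Rep, and, chosen after seeing the data, leaving out the 4 libraries with under 0.5% mitochondrial counts. No molecular identifiers were counted, so reads may repeat a molecule, and errors cover the spread between libraries.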

Additional observations from a re-analysis of the deposited data

Results flagged for a closer look

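Among 185 groups of 6 libraries checked, 3 values stood apart from the other libraries of their group by Dixon's criterion, which flags about 1 in 20 groups by chance. H2AFJ was at 25.4 CPM in library 2 of Rep 2 with SGI-1776 at 3750 nM, below the other libraries of that group. HIST1H2BC was at 8.72 CPM in library 2 of Rep 1 with SGI-1776-VHL-02 at 3750 nM, below its group. HIST1H2BL was at 0.971 CPM in library 3 of Rep 2 with SGI-1776 at 3750 nM, above its group.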

How the results depend on the processing

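No gene call reversed its direction under any alternative. Summing the libraries of each Rep, which leaves 2 samples per group, had the largest effect. HIST calls then numbered 3 for SGI-1776-VHL-02 at 3750 nM and 0 at 1500 nM against DMSO, 17 for SGI-1776 at 3750 nM and 0 at 1500 nM against DMSO, 7 for SGI-1776-VHL-02 against SGI-1776 at 1500 nM, 0 between SGI-1776 doses and 1 between SGI-1776-VHL-02 doses. At an unadjusted p under 0.05 the summed fit, which tested 52 HIST genes, had 19, 13, 28, 16, 30, 16 and 11 in the same order. Variant calls then numbered 1 for SGI-1776-VHL-02 at 3750 nM and 0 for SGI-1776 at 1500 nM against DMSO, 2 and 0 for SGI-1776-VHL-02 against SGI-1776 at 3750 nM and 1500 nM, and 0 between the doses of either compound.

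Without Rep 1 or Rep 2 libraries, HIST calls for SGI-1776-VHL-02 at 1500 nM against DMSO ranged from 3 to 9, variant calls for SGI-1776 at 1500 nM against DMSO from 1 to 3, and variant calls for SGI-1776-VHL-02 against SGI-1776 at 1500 nM from 2 to 4. The last count was 2 with library size as the only scaling and 2 with no filter on low counts. With Rep as a block, variant calls rose to 5 for SGI-1776 at 3750 nM and 1 for SGI-1776-VHL-02 at 1500 nM against DMSO; HIST calls with the block numbered 19 and 14 for SGI-1776-VHL-02 and 31 and 16 for SGI-1776 at 3750 nM and 1500 nM against DMSO, and the added genes beyond those given with the results were not examined singly. The summed fit and the fits on 1 Rep hold fewer samples, and the cause of these shifts was not tested. Over all calls on tested members, those between Reps included, 5 of 205 were lost with DESeq2, 1 with other size factors, 7 with library size as the only scaling, 27 with no filter and 126 when libraries were summed per Rep. Of the 179 calls between groups, 42 were lost without Rep 1, 36 without Rep 2, 15 without the 4 libraries of low mitochondrial share and none with the block. Depth limits the 15 tested HIST genes under 1 CPM, and 29 HIST genes could not be tested.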
